A study of Mus musculus with 9 samples.

Results

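To describe the mature egg against the female germ cells of the postnatal ovary, the RNA of MII oocytes was compared with that of female germline stem cells (FGSCs) over autosomal genes. MII oocytes are eggs held at metaphase of the second meiotic division, ready for fertilization, and FGSCs are cells of the ovary that carry germ cell markers and are studied as a possible source of oocytes. The members were all genes on the 19 autosomes with more than 1 FPKM (fragments scaled to transcript length and to the mapped fragments of the library) in at least one of these cell types. They numbered 14336 of the 37980 genes listed, 34953 of which are autosomal.

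The series holds 9 libraries of 4 cell types, with 2 libraries of MII oocytes, 2 of germinal vesicle (GV) oocytes, 3 of primordial germ cells of embryonic day 12.5 (E12.5 PGCs) and 2 of FGSCs. Every sample is labelled as female C57BL/6 mouse. FGSCs were sorted by GFP from ovaries of Mvh-GFP mice (Mvh-cre;ROSA mT/mG) aged 3 to 5 days, in which Cre under the Mvh promoter turns on GFP, so that a sorted cell has expressed Mvh at some time and need not express it when sorted. How the MII oocytes were collected, from mice of what age and with how many cells, is not given in the sources used here. The authors deposited 1 FPKM per gene and cell type, pooled over the libraries, so that no value has an error and no difference could be tested or checked against replicates here. A gene was counted as higher or lower in MII oocytes where the ratio of FPKM + 1 was at least 2-fold, which is at least 1 on the log2 scale. The 1 added to each value makes the ratio of a gene with a low FPKM smaller than the ratio of the FPKM values themselves.

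A fully grown oocyte stores messenger RNA and then stops transcription, and meiotic maturation to MII runs on that store. During maturation some stored messages receive longer poly(A) tails and are translated, while many others are shortened and degraded. FGSCs transcribe and divide, so they need the machinery of growth and of DNA replication. The cDNA of these libraries was primed on poly(A) tails.

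The MII oocyte label fits the egg markers in the files, though these were found in GV oocytes too. Gdf9, a growth factor that the oocyte sends to its granulosa cells, was at 12412 FPKM in MII oocytes and 2.49 in FGSCs. Mos, the kinase that starts the MAP kinase cascade of the metaphase II arrest, was at 3772 FPKM in MII oocytes and 0.285 in FGSCs. In GV oocytes Gdf9 was at 2093 FPKM and Mos at 266, so their presence marks an oocyte but does not tell its stage. The FGSC label was met in part. Ddx4, the gene of the Mvh protein, was at 17.2 FPKM in MII oocytes and 59.0 in FGSCs, and Pou5f1 (Oct4) at 32.8 FPKM in MII oocytes and 60.4 in FGSCs, so both were higher in FGSCs, Pou5f1 by less than 2-fold. Of 19 members among markers of spermatogonial stem cells and FGSCs, however, 11 were higher and 7 lower in MII oocytes (57.9% and 36.8%). Over all members the shares were 41.2% and 35.3%. With each cell type scaled to the same summed FPKM, 7 markers were higher and 8 lower. Nanos2, an RNA-binding protein of spermatogonial stem cells, was at 102 FPKM in MII oocytes and 0.0480 in FGSCs, and Gfra1, the GDNF receptor of these cells, at 13.8 FPKM in MII oocytes and 0.195 in FGSCs. These 2 markers had passed 1 FPKM in MII oocytes only and could not be lower, while 4 others had passed in FGSCs only. Log2 ratios of the list ran from -5.62 to 6.62. In bulk samples such as these, fewer cells of a type and less RNA per cell cannot be told apart.

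Of the members, 14334 had a value in both cell types. Among these, 5906 (41.2%) were higher and 5053 (35.3%) lower in MII oocytes than in FGSCs by 2-fold or more, and 3375 lay within 2-fold. At 4-fold or more 3793 were higher and 2799 lower. The median log2 ratio was 0.29, with quartiles of -1.60 and 2.12. Above 1 FPKM in both cell types were 8314 members, while 2713 passed the threshold in MII oocytes only and 3307 in FGSCs only. A gene that passes only through the cell type in which it is high has to differ, and over the 8314 genes the median log2 ratio was 0.51.

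The balance of higher and lower genes rests on how the libraries are scaled. Summed over all listed genes, FPKM came to 1232437 in MII oocytes and 417955 in FGSCs, a ratio of 2.95, although FPKM is already scaled to the fragments of each library. When each cell type was scaled to the same sum (TPM), the median log2 ratio became -1.06, a shift of -1.35, and 3848 genes were higher and 7252 lower. When the median ratio of genes above 1 FPKM in both was set to 1, 4831 were higher and 5722 lower. Levels and ratios below are those of the deposited FPKM, and a list is best read against the median of all members.

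A small part of the genes held much of the summed FPKM in MII oocytes. The 100 highest genes held 38.1% of the summed FPKM in MII oocytes and 25.7% in FGSCs, with 33.1% in E12.5 PGCs and 28.5% in GV oocytes. On the deposited scale, where the sum was larger in MII oocytes, 177 members reached 1000 FPKM in MII oocytes, against 42 in FGSCs. The highest member was Bcl2l10, a Bcl2 family gene of the oocyte, at 22843 FPKM in MII oocytes and 0.800 in FGSCs. It was followed in MII oocytes by Tcl1, a co-activator of the kinase Akt, at 19179 FPKM in MII oocytes and 81.8 in FGSCs. Zbed3, a protein of the subcortical maternal complex, stood at 17024 FPKM in MII oocytes and 24.0 in FGSCs. Pttg1, the securin that holds separase inactive until anaphase, was at 14030 FPKM in MII oocytes and 84.0 in FGSCs, and Dppa3 (Stella), which protects maternal DNA methylation in the zygote, at 10134 FPKM in MII oocytes and 462 in FGSCs. These last genes were therefore present in FGSCs as well, while Bcl2l10 was under 1 FPKM there. In all, 197 members were at or above 100 FPKM in MII oocytes and at or under 1 FPKM in FGSCs. The reverse held for 30 members.

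**Figure D1:**
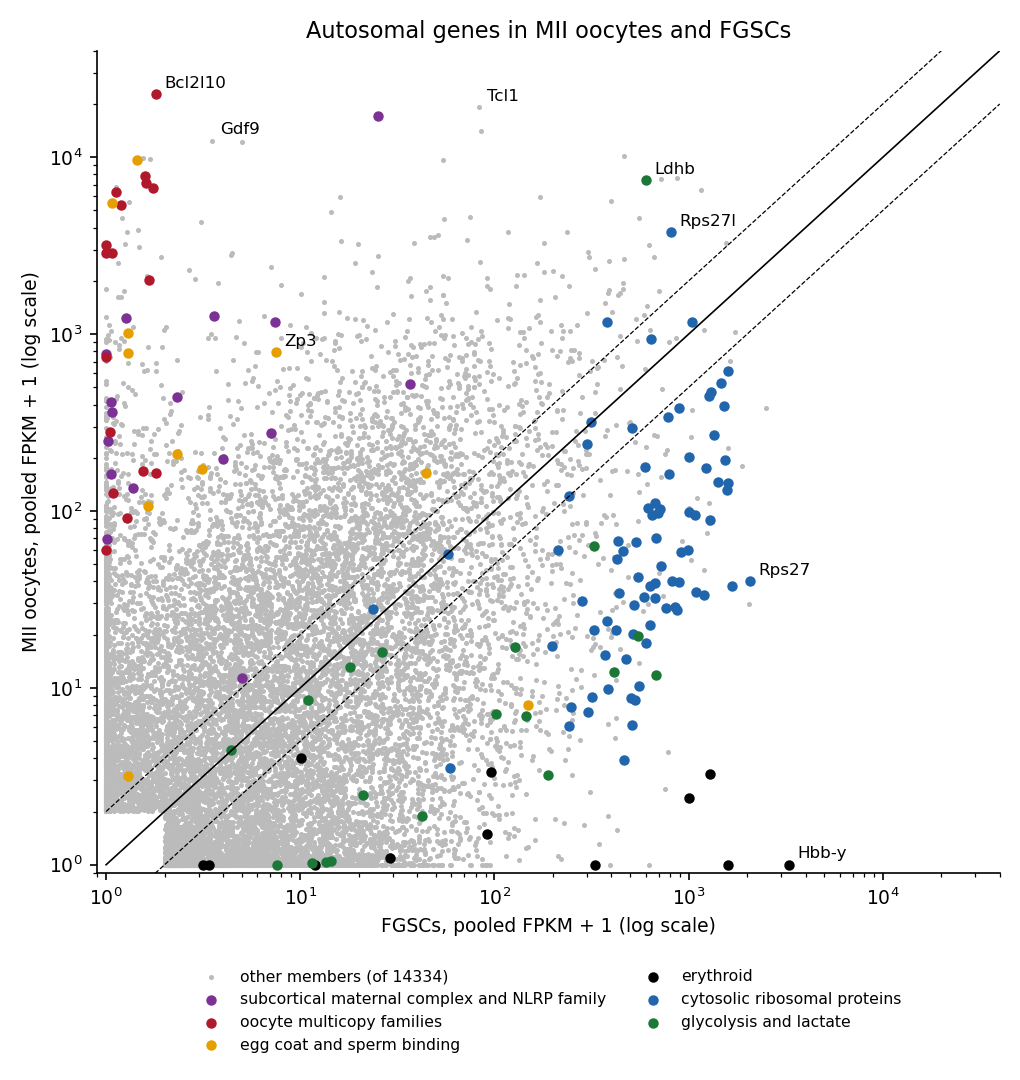
Pooled FPKM + 1 of the 14334 members in MII oocytes (vertical axis) and FGSCs (horizontal axis), both on log scales, with 1 point per gene, a solid line at equal values and dashed lines at 2-fold. The oocyte families lie along the left edge, near 0 FPKM in FGSCs, whereas ribosomal protein and globin genes lie below the lines, and Ldhb stands apart from the other glycolysis genes.

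The genes with the largest ratios were oocyte genes, many of them in families of near copies. Oosp1, a secreted protein of the oocyte, was at 9696 FPKM in MII oocytes and 0.442 in FGSCs, and Btg4, an adaptor that brings the CCR4-NOT deadenylase to maternal messages, at 9855 FPKM in MII oocytes and 0.550 in FGSCs. Among homeobox genes of the Obox family, Obox2 stood at 6356 FPKM in MII oocytes and 0.122 in FGSCs, Obox5 at 2877 FPKM in MII oocytes and 0.0691 in FGSCs and Obox1 at 2862 FPKM in MII oocytes, being listed at 0 in FGSCs. Omt2b was at 7871 FPKM in MII oocytes and 0.578 in FGSCs, Oas1d, a member of the oligoadenylate synthetase family found in oocytes, at 7140 FPKM in MII oocytes and 0.604 in FGSCs, and the RING finger gene Rfpl4 at 5340 FPKM in MII oocytes and 0.192 in FGSCs. Of the Tcl1b genes, neighbours of Tcl1, the highest was Tcl1b1 at 4517 FPKM in MII oocytes and 0.207 in FGSCs. Of 25 genes of the list of oocyte families in the tables, 17 were members, with log2 ratios from 5.91 to 13.63. All 17 were above 1 FPKM in MII oocytes only, so the threshold itself fixed their direction, and the ratios are a description. Of the 6 Tcl1 genes and the 13 genes of the oocyte Fbxw group, 5 and 12 likewise passed through MII oocytes only. Above 1 FPKM in both cell types were Tcl1 and, in the Fbxw group, Fbxw17, which lay within 2-fold with a log2 ratio of -0.48. How reads were shared among near-identical copies in these families is not given in the sources used here, so the values of single copies are uncertain.

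Genes of the egg coat and of sperm binding were higher in MII oocytes for 10 of 11 members, 6 of which had passed 1 FPKM in MII oocytes only. Over all members 41.2% were higher. The zona pellucida is a glycoprotein coat that the growing oocyte secretes. Its gene Zp3 was at 790.2 FPKM in MII oocytes and 6.49 in FGSCs, Zp2 at 171 FPKM in MII oocytes and 2.11 in FGSCs and Zp1 at 209 FPKM in MII oocytes and 1.32 in FGSCs. In GV oocytes, the stage before maturation, the same genes stood at 4780, 1248 and 829 FPKM, so the level in MII oocytes was lower than in GV oocytes though well above that in FGSCs. Astl (ovastacin), the protease that cleaves ZP2 after fertilization, was instead at 1019 FPKM in MII oocytes, 271 in GV oocytes and 0.292 in FGSCs. Izumo1r (Juno), the sperm receptor on the egg, was at 105 FPKM in MII oocytes and 0.635 in FGSCs, and Cd9, a tetraspanin needed for fusion, at 163 FPKM in MII oocytes and 43.3 in FGSCs. The exception was Cd81, another tetraspanin of the egg surface, at 6.99 FPKM in MII oocytes and 147 in FGSCs.

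The promoters of genes at both ends of the comparison are printed to show their base composition and E-boxes, the CANNTG letters bound by basic helix-loop-helix factors such as FIGLA. They are RefSeq windows of 250 bases before to 50 after the start (GRCm38.p6), each 5′ to 3′ on the gene's strand with every CANNTG in capitals. Zp3 lies at chr5:135979855-135980154 on the plus strand, Btg4 at chr9:51115751-51116050 on the plus strand, Wee2 at chr6:40442613-40442912 on the plus strand and Utf1 at chr7:139943606-139943905 on the plus strand. Zp3, Btg4 and Wee2 were higher in MII oocytes and Utf1 was higher in FGSCs.
Zp3: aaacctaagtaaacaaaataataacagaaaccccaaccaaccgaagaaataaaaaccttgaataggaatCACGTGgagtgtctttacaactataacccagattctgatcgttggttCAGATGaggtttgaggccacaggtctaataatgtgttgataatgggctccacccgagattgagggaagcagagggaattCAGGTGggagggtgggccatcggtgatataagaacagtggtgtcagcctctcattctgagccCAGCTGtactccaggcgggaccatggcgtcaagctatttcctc
Btg4: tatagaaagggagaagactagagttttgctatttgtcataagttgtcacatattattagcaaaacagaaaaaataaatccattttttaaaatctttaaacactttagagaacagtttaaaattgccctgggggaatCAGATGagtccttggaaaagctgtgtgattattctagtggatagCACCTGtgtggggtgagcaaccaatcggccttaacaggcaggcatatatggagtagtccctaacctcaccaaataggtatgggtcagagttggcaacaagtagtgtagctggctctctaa
Wee2: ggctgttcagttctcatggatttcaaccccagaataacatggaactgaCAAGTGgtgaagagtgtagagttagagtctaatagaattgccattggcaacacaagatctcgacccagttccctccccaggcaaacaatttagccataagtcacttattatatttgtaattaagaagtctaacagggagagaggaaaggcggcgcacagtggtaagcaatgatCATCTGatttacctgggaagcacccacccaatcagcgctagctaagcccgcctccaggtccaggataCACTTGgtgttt
Utf1: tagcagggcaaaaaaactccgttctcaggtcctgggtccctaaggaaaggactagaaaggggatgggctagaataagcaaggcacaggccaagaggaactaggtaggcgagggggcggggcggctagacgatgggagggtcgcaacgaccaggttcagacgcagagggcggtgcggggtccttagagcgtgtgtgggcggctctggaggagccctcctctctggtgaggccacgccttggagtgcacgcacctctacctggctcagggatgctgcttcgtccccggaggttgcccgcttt
These windows hold 4, 2, 3 and 0 E-boxes in the order printed, and their GC content is 46.3%, 39.0%, 46.0% and 62.0%. CANNTG is common, being found, as it reads the same on both strands, in 72.3% of all 32851 promoter windows and in 63.8% of the 9342 windows matched to members. It was in 64.4% of the 3761 windows matched to genes higher in MII oocytes and in 64.1% of the 3325 matched to lower ones. The NOBOX element, searched as TAATTG and TAATTA on both strands, was in 9.07% of the windows of higher genes and in 6.17% of those of lower genes, against 7.35% of the windows of members and 12.4% of all windows. Median GC content of the windows was 60.3% for higher and 60.3% for lower genes, 60.7% for members and 52.7% for all windows. A match is only a run of letters.

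**Figure D2:**
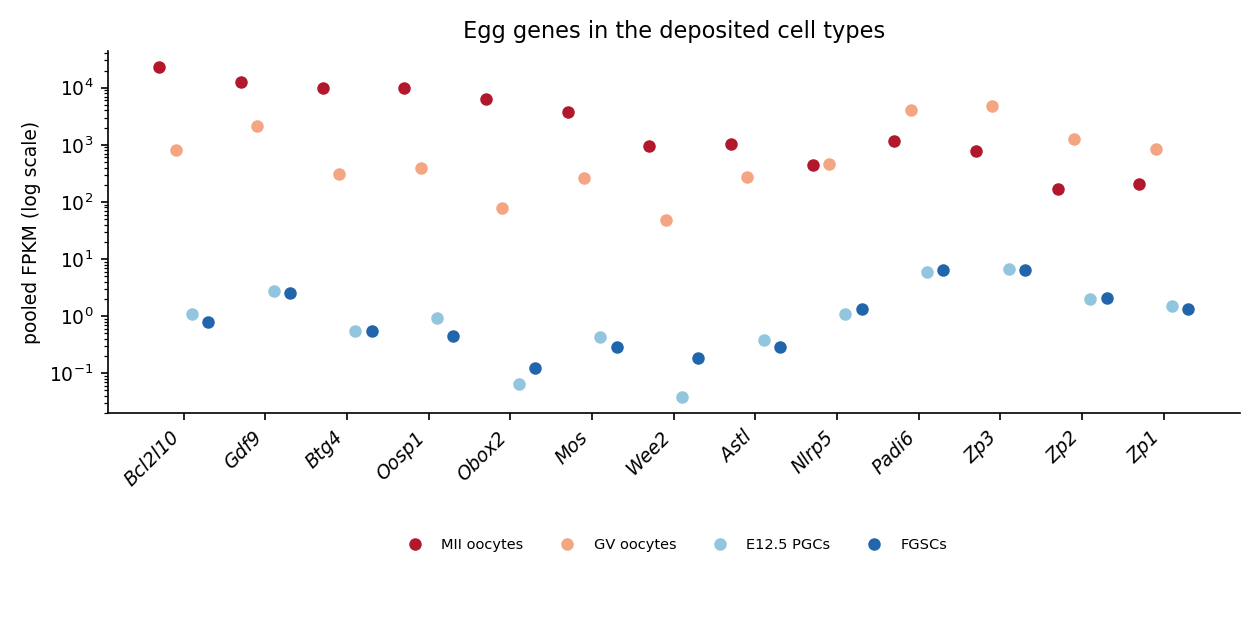
Pooled FPKM on a log scale for 13 egg genes, with 1 point per cell type (MII oocytes, GV oocytes, E12.5 PGCs and FGSCs, from left to right within each gene). MII oocytes are above FGSCs for every gene shown. The zona pellucida genes and Padi6 are lower in MII oocytes than in GV oocytes, as Zp3 is at 790 and 4780 FPKM. Nlrp5 is slightly lower, at 439 FPKM in MII oocytes and 460 in GV oocytes.

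All 16 members of the subcortical maternal complex and NLRP list were higher in MII oocytes, against 41.2% of all members, with a median log2 ratio of 7.44. However, 8 of them had passed 1 FPKM in MII oocytes only and could not be lower. The complex lies under the egg membrane and is needed for the first divisions of the embryo. Nlrp5 (Mater) was at 439 FPKM in MII oocytes and 1.31 in FGSCs, and Padi6, an enzyme-like protein of the cytoplasmic lattices, at 1164 FPKM in MII oocytes and 6.37 in FGSCs. Tle6 was at 518 FPKM in MII oocytes and 35.9 in FGSCs, the highest level of the complex in FGSCs, and Ooep at 276 FPKM in MII oocytes and 6.11 in FGSCs. The Nlrp4 and Nlrp9 genes, which are near copies of each other, ran from 10.4 FPKM in MII oocytes and 4.03 in FGSCs for Nlrp4c to 1235 FPKM in MII oocytes and 0.274 in FGSCs for Nlrp4f. Nlrp9c was listed at 0 in FGSCs and was at 772 FPKM in MII oocytes.

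Maternal effect and reprogramming genes, whose products act in the zygote, were higher for 19 of 23 members and lower for 1. The shares of all members were 41.2% and 35.3%. In this list 2 genes had passed 1 FPKM in MII oocytes only and could not be lower. At equal sums 14 were higher and 2 lower. Zar1, an RNA-binding protein of the egg, was at 2036 FPKM in MII oocytes and 1.86 in FGSCs, and Npm2, a histone chaperone that unpacks sperm chromatin, at 617 FPKM in MII oocytes and 2.66 in FGSCs. Tet3, the dioxygenase that oxidizes methylcytosine in the zygote, was at 211 FPKM in MII oocytes and 1.10 in FGSCs, and Zfp57, which guards imprints, at 794 FPKM in MII oocytes and 9.78 in FGSCs. The maintenance methyltransferase Dnmt1 stood at 139 FPKM in MII oocytes and 22.1 in FGSCs and its partner Uhrf1 at 178 FPKM in MII oocytes and 18.0 in FGSCs. Dnmt3l, the cofactor of imprint establishment, was at 100.1 FPKM in MII oocytes and was listed at 0 in FGSCs. Smarca4 (Brg1), a chromatin remodeller, was the member that was lower on the deposited scale, at 5.43 FPKM in MII oocytes and 23.6 in FGSCs.

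A pair of members had no value in MII oocytes. H1foo, the linker histone of the oocyte, and Spin1, a protein of the meiotic spindle, are listed at 0 in MII oocytes with a status in the deposited table that marks loci with too much data to be estimated. They were at 2248 and 650 FPKM in GV oocytes and at 2.49 and 23.4 FPKM in FGSCs, and no ratio is given for them. Of the 6 other linker histone members, 4 were lower and 1 was higher in MII oocytes, against 35.3% and 41.2% of all members. H1f0, the replacement linker histone, was at 30.9 FPKM in MII oocytes and 228 in FGSCs, and Hist1h1a, the higher one, at 16.0 FPKM in MII oocytes and 1.59 in FGSCs.

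Transcription factors of the oocyte were uneven. Nobox, a homeobox factor of follicle growth, was at 83.8 FPKM in MII oocytes and 0.884 in FGSCs, Lhx8 at 14.1 FPKM in MII oocytes and 0.169 in FGSCs and Tbpl2, the TATA-binding factor of oocytes, at 29.3 FPKM in MII oocytes and 0.0568 in FGSCs. Figla, the factor that turns on the zona pellucida genes, was at 2.22 FPKM in MII oocytes and 0.885 in FGSCs, with 427 in GV oocytes, and so differed from FGSCs by less than 2-fold. Sohlh1 was at 0.173 FPKM in MII oocytes and 2.34 in FGSCs, with 172 in GV oocytes. In the list, 10 of 15 were higher and 2 lower in MII oocytes (66.7% and 13.3%), against 41.2% and 35.3% of all members. Of these 15, 7 had passed 1 FPKM in MII oocytes only, Nobox, Lhx8 and Tbpl2 among them, and could not be lower. The median log2 ratio was 3.57, and 1.78 over the 7 genes above 1 FPKM in both cell types.

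Regulators of meiosis and its arrest were higher for 16 of 30 members and lower for 7, against 41.2% and 35.3% of all members. With equal sums, 14 were higher and 10 lower. In this list 7 members, Wee2 and Fbxo43 among them, had passed 1 FPKM in MII oocytes only and could not be lower. Cyclin B1 (Ccnb1), the activator of Cdk1, was at 2248 FPKM in MII oocytes and 178 in FGSCs, and Cks2, a small partner of Cdk1, at 3782 FPKM in MII oocytes and 235 in FGSCs. Wee2, the oocyte kinase that restrains Cdk1, was at 948 FPKM in MII oocytes and 0.188 in FGSCs, and Fbxo43 (Emi2), the inhibitor of the anaphase-promoting complex that keeps the egg at metaphase, at 111 FPKM in MII oocytes and 0.0140 in FGSCs. Mastl (Greatwall), which shields the substrates of Cdk1 from phosphatase, was at 144 FPKM in MII oocytes and 2.11 in FGSCs. Cdk1 itself was lower, at 16.0 FPKM in MII oocytes and 108 in FGSCs, as was Map2k2 at 9.52 FPKM in MII oocytes and 84.8 in FGSCs, while its relative Map2k1 was higher at 468 FPKM in MII oocytes and 32.8 in FGSCs. Cdc25c, a phosphatase that activates Cdk1, stood at 0.206 FPKM in MII oocytes and 6.82 in FGSCs.

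Of 29 spindle and checkpoint members 18 were higher and 3 lower, against 41.2% and 35.3% of all members. At equal sums 12 were higher and 9 lower. Aurkc, the Aurora kinase of meiosis, was at 1527 FPKM in MII oocytes and 12.2 in FGSCs, whereas Aurkb, its mitotic relative, lay within 2-fold at 34.7 FPKM in MII oocytes and 49.9 in FGSCs. The checkpoint genes Mad2l1 and Bub1b were at 1209 FPKM in MII oocytes and 59.3 in FGSCs and at 911 FPKM in MII oocytes and 29.7 in FGSCs. Cenpe, the kinetochore motor, was at 99.5 FPKM in MII oocytes and 4.68 in FGSCs. Incenp, the scaffold of the Aurora complex, was lower at 10.8 FPKM in MII oocytes and 34.6 in FGSCs.

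Genes that store, translate or destroy maternal messages were higher for 25 of 33 members (75.8%, against 41.2% of all members), with a median log2 ratio of 2.81. In this list 6 genes had passed 1 FPKM in MII oocytes only and could not be lower. At equal sums 20 were higher and 8 lower, and the median was 1.31. Cnot7, a catalytic deadenylase of CCR4-NOT, was at 1042 FPKM in MII oocytes and 34.4 in FGSCs, its relative Cnot6l at 176 FPKM in MII oocytes and 2.36 in FGSCs, and Dcp1a, a cofactor of decapping, at 341 FPKM in MII oocytes and 2.06 in FGSCs. Dazl, which keeps messages translated in the egg, stood at 900.4 FPKM in MII oocytes and 75.0 in FGSCs, and Cpeb1, the reader of the cytoplasmic polyadenylation element, at 117 FPKM in MII oocytes and 15.8 in FGSCs. Among the 4 members lower on the deposited scale, Pabpc1, the poly(A)-binding protein of most cells, was at 4.21 FPKM in MII oocytes and 100.4 in FGSCs. Ybx2 (Msy2), the main packing protein of stored messages, was at 22.1 FPKM in MII oocytes and 7.57 in FGSCs, with 571 in GV oocytes.

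Several families hold a member known from oocytes beside a relative, in most of them one of wider use, and 15 such pairs had a ratio for both genes. In 14 of them the first had the larger log2 ratio of MII oocytes over FGSCs. Of the genes named first, Wee2, Pabpc1l, Kpna7, Eif4e1b, Fbxo43, Tbpl2, Btg4 and Dnmt3l had passed 1 FPKM in MII oocytes only. These could not be lower, so the count of pairs is a description. The kinase Wee2 had a log2 ratio of 9.64 and Wee1 one of -2.72, with Wee1 at 2.16 FPKM in MII oocytes and 19.8 in FGSCs. For the poly(A)-binding proteins the log2 ratio was 4.57 for Pabpc1l and -4.28 for Pabpc1. Kpna7, an importin alpha of eggs, was at 443 FPKM in MII oocytes and 0.142 in FGSCs, and Kpna2 at 209.8 FPKM in MII oocytes and 297 in FGSCs. Eif4e1b, a cap-binding protein of oocytes, was at 53.9 FPKM in MII oocytes and 0.290 in FGSCs, and Eif4e at 161 FPKM in MII oocytes and 64.1 in FGSCs, so the widely used member still had the higher level in MII oocytes. The reverse was seen in cohesin, where Rec8, the meiotic kleisin, was at 0.0806 FPKM in MII oocytes and 14.1 in FGSCs and Rad21, the mitotic one, at 47.2 FPKM in MII oocytes and 13.8 in FGSCs. In the pair of NLRP genes the relative was itself near 0 in FGSCs, with Nlrp2 at 68.7 FPKM in MII oocytes and 0.0163 in FGSCs, and is not a gene of wider use. These pairs were picked for what is known of their use in oocytes.

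**Figure D3:**
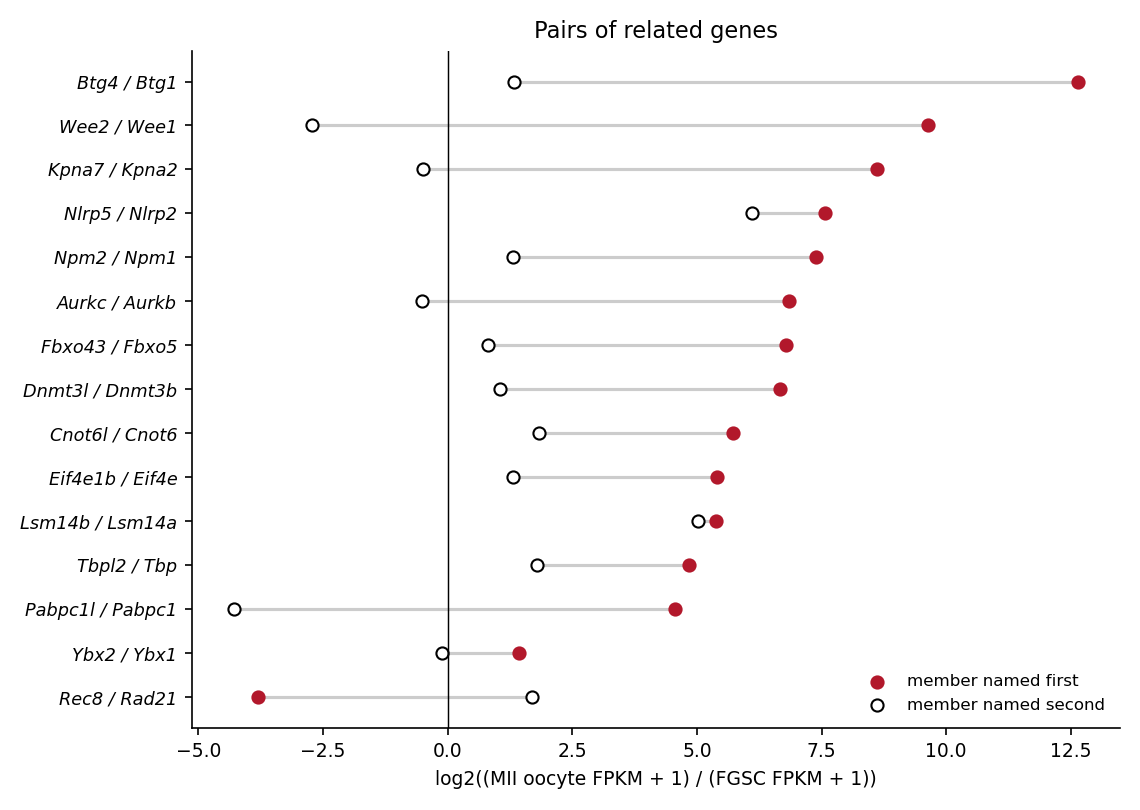
Log2 ratio of MII oocytes over FGSCs (pooled FPKM + 1) for 15 pairs of related genes, with a filled point for the gene named first and an open point for the gene named second. The filled point is to the right in 14 pairs, and for Rec8 and Rad21 it is to the left, at -3.81 against 1.70.

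Meiotic prophase genes were mixed, with 17 of 29 higher and 10 lower in MII oocytes, against 41.2% higher and 35.3% lower over all members. At equal sums 11 were higher and 12 lower, and the median log2 ratio of 1.70 became 0.20. Prophase is long past in an MII oocyte, and its genes build the synaptonemal complex and repair programmed breaks. Syce2, of the central element, was at 565 FPKM in MII oocytes and 129 in FGSCs, and Sycp3, of the lateral element, at 88.0 FPKM in MII oocytes and 9.30 in FGSCs. Msh4, which stabilizes crossover intermediates, was at 80.6 FPKM in MII oocytes and 0.323 in FGSCs. On the other side stood Hormad1, an axis protein, at 1.14 FPKM in MII oocytes and 31.9 in FGSCs, and Stag3, a meiotic cohesin subunit, at 0.410 FPKM in MII oocytes and 22.8 in FGSCs.

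Germ cell identity genes had shares near those of all members, 14 of 30 being higher and 10 lower (46.7% and 33.3%, against 41.2% and 35.3%). At equal sums 9 were higher and 14 lower. Brdt, a bromodomain protein of the germ line, was at 947 FPKM in MII oocytes and 2.63 in FGSCs, and Gtsf1, a piRNA pathway factor, at 234 FPKM in MII oocytes and 3.87 in FGSCs. Among the lower members was Dnd1, an RNA-binding protein that keeps primordial germ cells alive, at 0.965 FPKM in MII oocytes and 86.3 in FGSCs, as was Dppa4 at 1.14 FPKM in MII oocytes and 103 in FGSCs. Nanos3 and Ifitm1 (fragilis2) were listed at 0 in MII oocytes and were at 17.5 and 626 FPKM in FGSCs.

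The pluripotency list had 5 of 16 members higher and 8 lower in MII oocytes, against 41.2% and 35.3% of all members. In this list 5 genes, Utf1, Mycn and Zfp42 among them, were above 1 FPKM in FGSCs only and could not be higher. The list had a median log2 ratio of -0.94, and of -0.30 over its 10 genes above 1 FPKM in both cell types. Nanog was at 1.04 FPKM in MII oocytes and 49.8 in FGSCs, Mycn at 0.0738 FPKM in MII oocytes and 85.0 in FGSCs and Zfp42 (Rex1) at 0.212 FPKM in MII oocytes and 17.7 in FGSCs. Utf1, a chromatin factor of undifferentiated cells, was listed at 0 in MII oocytes and was at 395 FPKM in FGSCs. Sall4 went the other way, at 449 FPKM in MII oocytes and 36.8 in FGSCs, as did Lin28b, a repressor of let-7 microRNAs, at 20.1 FPKM in MII oocytes and 1.20 in FGSCs.

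Genes of the cytosolic ribosome were mostly lower in MII oocytes. Of 80 ribosomal protein members, 70 were lower and 2 higher in MII oocytes, against 35.3% lower over all members, with a median log2 ratio of -3.55. Their median level was 54.3 FPKM in MII oocytes and 634 in FGSCs. Rps27 was at 39.3 FPKM in MII oocytes and 2067 in FGSCs, Rps19 at 36.8 FPKM in MII oocytes and 1665 in FGSCs and Rpl3 at 2.88 FPKM in MII oocytes and 461 in FGSCs. The exceptions were Rps27l, a relative of Rps27 linked to p53, at 3763 FPKM in MII oocytes and 807 in FGSCs, and Rps15a at 1164 FPKM in MII oocytes and 377 in FGSCs. Scaled to equal sums, none of the 80 was higher and 78 were lower. Ribosomal protein genes have many processed copies that may share their reads.

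Other machinery of growing cells had more lower than higher members too, against 35.3% lower and 41.2% higher over all members. The lower share was 66.2% for respiratory chain subunits, 51.3% for mitochondrial ribosomal proteins and 51.4% for proteasome subunits. Of 71 respiratory chain subunits encoded in the nucleus 47 were lower and 5 higher, with Uqcrc1 of complex III at 0.674 FPKM in MII oocytes and 288 in FGSCs and Cox4i1 of complex IV at 66.6 FPKM in MII oocytes and 928 in FGSCs. Cox8a of complex IV was higher, at 2661 FPKM in MII oocytes and 465 in FGSCs. Of 76 mitochondrial ribosomal proteins 39 were lower and 18 higher, for example Mrpl17 at 3.51 FPKM in MII oocytes and 237 in FGSCs and Mrps36 at 666 FPKM in MII oocytes and 35.7 in FGSCs. Of 35 proteasome subunits 18 were lower and 7 higher. Their median log2 ratio was -1.05, and -0.74 over the 33 above 1 FPKM in both cell types. Psmb5, a catalytic subunit, was at 15.5 FPKM in MII oocytes and 312 in FGSCs, and Psma7 was higher at 1798 FPKM in MII oocytes and 459 in FGSCs. All but 1 of the 8 subunits of the chaperonin CCT were lower, Cct6a standing at 0.803 FPKM in MII oocytes and 204 in FGSCs and Cct8 within 2-fold at 263 FPKM in MII oocytes and 368 in FGSCs.

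Glycolysis genes were lower for 14 of 19 members (73.7%, against 35.3% of all members), with a median log2 ratio of -3.50. In this list 5 genes were above 1 FPKM in FGSCs only and could not be higher. Over the 14 genes above 1 FPKM in both cell types the median was -3.00. Pkm, pyruvate kinase, listed under its older symbol Pkm2, was at 10.8 FPKM in MII oocytes and 677 in FGSCs, Eno1 (enolase) at 18.8 FPKM in MII oocytes and 550.2 in FGSCs and Aldoa (aldolase) at 11.3 FPKM in MII oocytes and 413 in FGSCs. Gapdh was at 62.7 FPKM in MII oocytes and 323 in FGSCs, so this common reference gene was not level between the cell types. Lactate dehydrogenase had opposite subunits, Ldha at 2.23 FPKM in MII oocytes and 187 in FGSCs and Ldhb at 7435 FPKM in MII oocytes and 604 in FGSCs. Mouse oocytes are known to use pyruvate rather than glucose, and a link to these levels was not tested. Among antioxidant genes Prdx1 was higher at 4528 FPKM in MII oocytes and 552 in FGSCs and Gpx4 lower at 20.4 FPKM in MII oocytes and 381 in FGSCs.

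**Figure D4:**
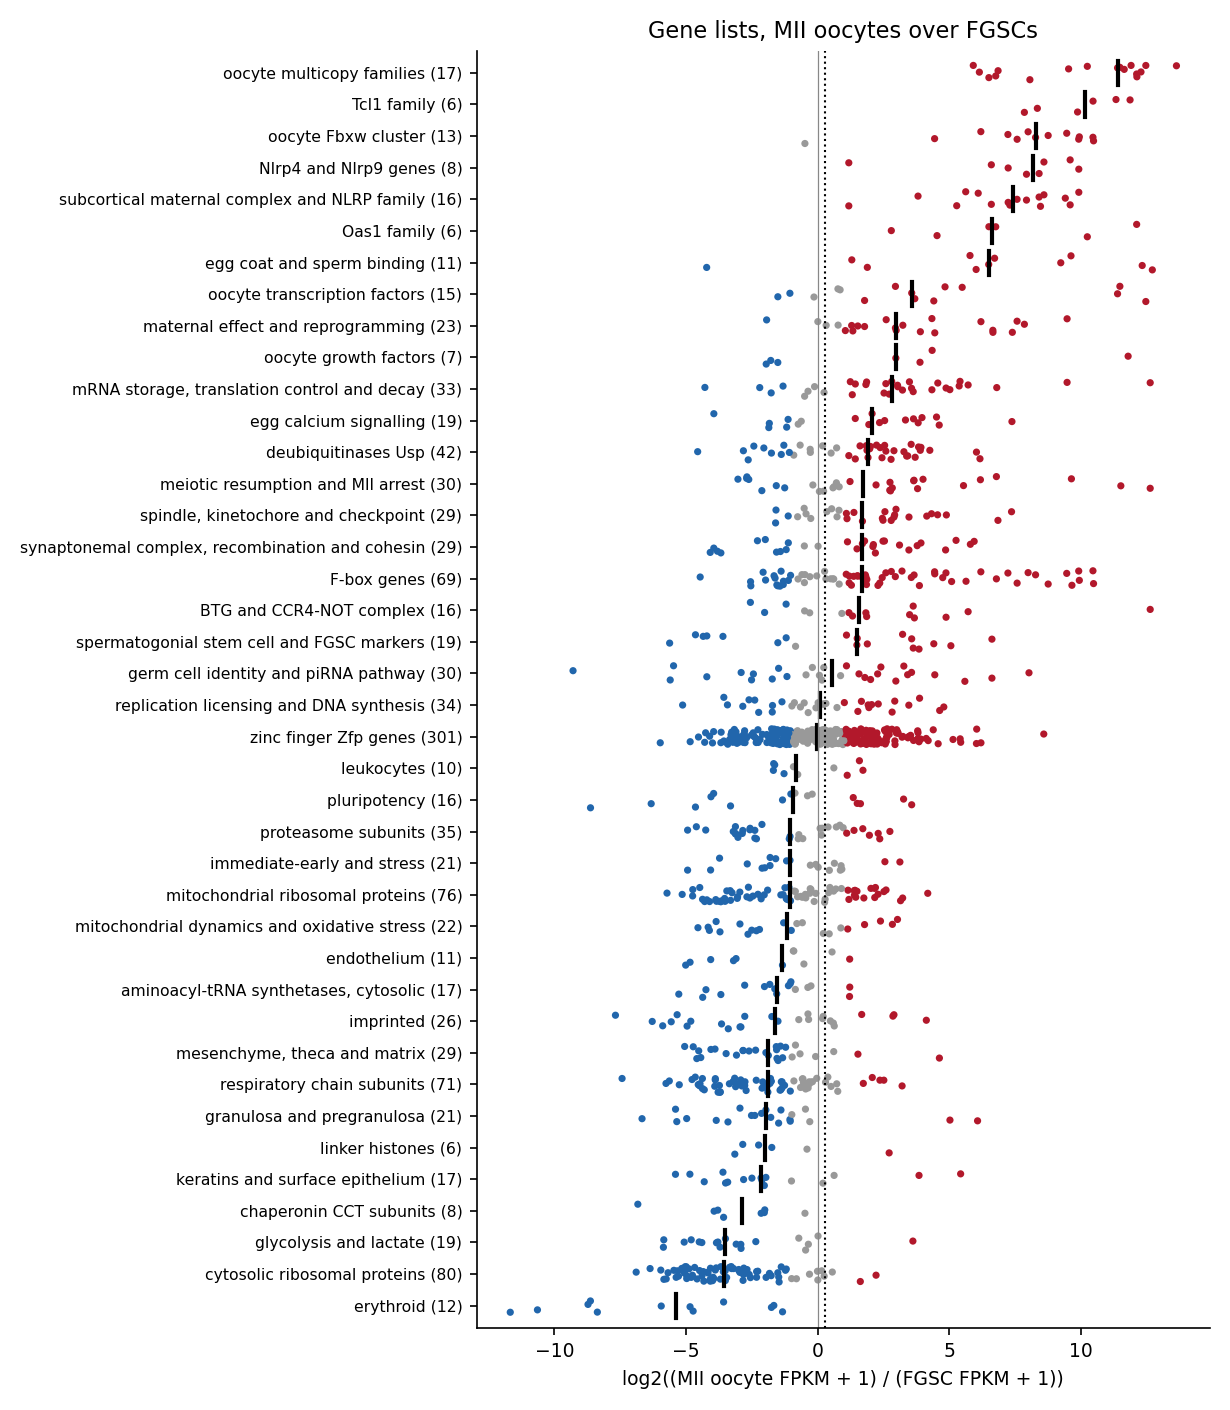
Log2 ratio of MII oocytes over FGSCs (pooled FPKM + 1) for each member of 40 gene lists, with the number of members in brackets, 1 point per gene, and a black bar at the list's median. Points at 2-fold or more are red where higher and blue where lower in MII oocytes, the dotted line marks the median of all members at 0.29, and the lists run from oocyte families (11.39) to erythroid genes (-5.39).

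Of 34 genes of DNA replication, 13 (38.2%) were higher and 10 (29.4%) lower, shares near the 41.2% and 35.3% of all members. An MII oocyte does not replicate DNA but the zygote does within hours. Gmnn (geminin), which blocks licensing, was at 876 FPKM in MII oocytes and 78.4 in FGSCs, and Orc6 and Orc5, of the origin recognition complex, at 854 FPKM in MII oocytes and 29.8 in FGSCs and at 527 FPKM in MII oocytes and 20.2 in FGSCs. In the MCM helicase that the complex loads, Mcm4 was higher at 145 FPKM in MII oocytes and 49.4 in FGSCs, Mcm2 within 2-fold at 90.5 FPKM in MII oocytes and 89.3 in FGSCs, and Mcm3 and Mcm5 lower at 7.16 FPKM in MII oocytes and 86.7 in FGSCs and at 5.22 FPKM in MII oocytes and 72.5 in FGSCs. The clamp Pcna was at 526 FPKM in MII oocytes and 126 in FGSCs, and Rfc2, a subunit of its loader, at 1.34 FPKM in MII oocytes and 80.7 in FGSCs. Over this list the direction depended on scaling, since 6 were higher and 20 lower at equal sums.

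Calcium release drives egg activation, and 12 of 19 genes of calcium signalling were higher and 5 lower in MII oocytes, against 41.2% and 35.3% of all members. At equal sums 8 were higher and 7 lower. The receptors that release stored calcium were higher, with Itpr1 at 31.5 FPKM in MII oocytes and 4.56 in FGSCs and Itpr2 at 329 FPKM in MII oocytes and 0.977 in FGSCs. Camk2g, the kinase through which calcium ends the arrest in mouse eggs, was at 165 FPKM in MII oocytes and 6.25 in FGSCs. The store sensors differed, Stim2 standing at 30.2 FPKM in MII oocytes and 2.09 in FGSCs and Stim1 at 1.08 FPKM in MII oocytes and 6.41 in FGSCs.

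Families of ubiquitin enzymes, unlike the proteasome subunits, had more higher than lower members on the deposited scale. Of 69 F-box members, the adaptors of SCF ubiquitin ligases, 42 were higher and 15 lower, against 41.2% and 35.3% of all members. In this list 19 genes had passed 1 FPKM in MII oocytes only and could not be lower. Among these, Fbxw24 was at 2729 FPKM in MII oocytes and 0.908 in FGSCs and Fbxw14 at 1617 FPKM in MII oocytes and 0.149 in FGSCs. Of 42 Usp deubiquitinases 26 were higher and 9 lower. Usp2 was at 545 FPKM in MII oocytes and 6.59 in FGSCs and Usp5 at 1.90 FPKM in MII oocytes and 67.3 in FGSCs. For the 301 Zfp zinc finger members the counts were 94 higher and 106 lower, both shares at or under those of all members. Equal sums gave the Usp list 16 higher and 13 lower, and the F-box list 27 and 23.

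Imprinted genes, expressed from the allele of a single parent in the embryo, were lower for 14 of 26 members and higher for 4. The shares of all members were 35.3% lower and 41.2% higher. In this list 7 genes were above 1 FPKM in FGSCs only and could not be higher. The list had a median log2 ratio of -1.62, and of -0.35 over its 18 genes above 1 FPKM in both cell types. H19, an untranslated RNA, was at 0.0710 FPKM in MII oocytes and 219 in FGSCs, and its neighbour Igf2, a fetal growth factor, at 2.21 FPKM in MII oocytes and 249 in FGSCs. Cdkn1c, a cell cycle inhibitor, was at 2.90 FPKM in MII oocytes and 229 in FGSCs and Peg3 at 1.37 FPKM in MII oocytes and 94.8 in FGSCs. Higher in MII oocytes were Kcnq1 at 44.3 FPKM in MII oocytes and 1.59 in FGSCs and H13 at 241 FPKM in MII oocytes and 32.4 in FGSCs, while Mest lay within 2-fold at 519 FPKM in MII oocytes and 335 in FGSCs.

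Most lists of markers of cells other than germ cells had more lower than higher members in MII oocytes, and several markers were high in FGSCs. Over all members 35.3% were lower and 41.2% higher. All 12 erythroid members were lower, with a summed level of 9.58 FPKM in MII oocytes and 7738 in FGSCs. The embryonic globins Hbb-y and Hba-x were listed at 0 in MII oocytes and at 3273 and 1599 FPKM in FGSCs. They were at 3378 and 10452 FPKM in E12.5 PGCs, so a high level was not particular to FGSCs. How embryonic globins came to be high in cells sorted from ovaries of mice aged 3 to 5 days was not tested. Of 21 granulosa and pregranulosa members 16 were lower, with a sum of 154 FPKM in MII oocytes and 385 in FGSCs. Wt1, a factor of the somatic gonad, was at 0.124 FPKM in MII oocytes and 113 in FGSCs, and Amhr2 was listed at 0 in MII oocytes and at 39.8 FPKM in FGSCs. Foxl2, which defines granulosa cells, was at 0.0381 FPKM in MII oocytes and 1.13 in FGSCs. The 2 higher members were Cyp19a1 (aromatase) at 68.2 FPKM in MII oocytes and 0.0260 in FGSCs and Esr2 at 42.6 FPKM in MII oocytes and 0.337 in FGSCs. Mesenchyme and matrix genes were lower for 22 of 29 members (Col1a1 at 0.237 FPKM in MII oocytes and 28.8 in FGSCs), keratin and epithelium genes for 12 of 17 and endothelial genes for 6 of 11. Many of these genes were above 1 FPKM in FGSCs only, as were 8 of the erythroid, 12 of the granulosa and 22 of the mesenchyme and matrix members, so that the threshold left them no other direction. Of the 10 leukocyte members 3 were higher and 4 lower, and they summed to 45.6 FPKM in MII oocytes and 42.0 in FGSCs. The part of such cells in the values of genes higher in FGSCs was not tested.

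Immediate-early and stress genes, which answer to cell handling, were lower in MII oocytes for 11 of 21 members and higher for 2. The shares of all members were 35.3% lower and 41.2% higher. In this list 5 genes, Jun among them, were above 1 FPKM in FGSCs only and could not be higher. The list had a median log2 ratio of -1.05, and of -0.28 over its 15 genes above 1 FPKM in both cell types. Jun was at 0.129 FPKM in MII oocytes and 33.6 in FGSCs and Ier2 at 6.39 FPKM in MII oocytes and 96.7 in FGSCs. The chaperone Hsp90aa1 was higher at 7632 FPKM in MII oocytes and 873 in FGSCs, and its relative Hsp90ab1 lower at 221 FPKM in MII oocytes and 776 in FGSCs. Their part in other results was not tested.

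The ratio of MII oocytes to FGSCs went with the base composition of the transcripts. With transcript GC content from GENCODE for 96.3% of the members, the median log2 ratio was 1.37 in the quintile with the least GC (18.1% to 45.2%). It was 1.07, 0.52, -0.66 and -1.26 in the next quintiles up to the one with the most GC (56.0% to 83.1%). Of the genes in the lowest quintile 58.0% were higher and 19.2% lower in MII oocytes, and in the highest quintile 21.7% were higher and 57.0% lower. Over genes above 1 FPKM in both cell types the medians were 1.32, 0.91, 0.57, -0.07 and -0.42. The other cell types, set against the same FGSC values, also varied with GC content. Over all members the ratio of GV oocytes to FGSCs had medians of -0.05, -0.02, 0.00, -0.05 and -0.14. Over the genes above 1 FPKM in both MII oocytes and FGSCs it ran the other way, with -0.23, -0.13, 0.08, 0.17 and 0.44. The ratio of E12.5 PGCs to FGSCs fell with GC content as that of MII oocytes did, with medians over all members of 0.23, 0.08, 0.00, -0.30 and -0.72. Members higher in MII oocytes had a median transcript GC of 48.4% and lower ones of 53.7%, with Btg4 at 42.7% and Utf1 at 63.5%. The part of base composition in the other results was not tested beyond the centring within quintiles.

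**Figure D5:**
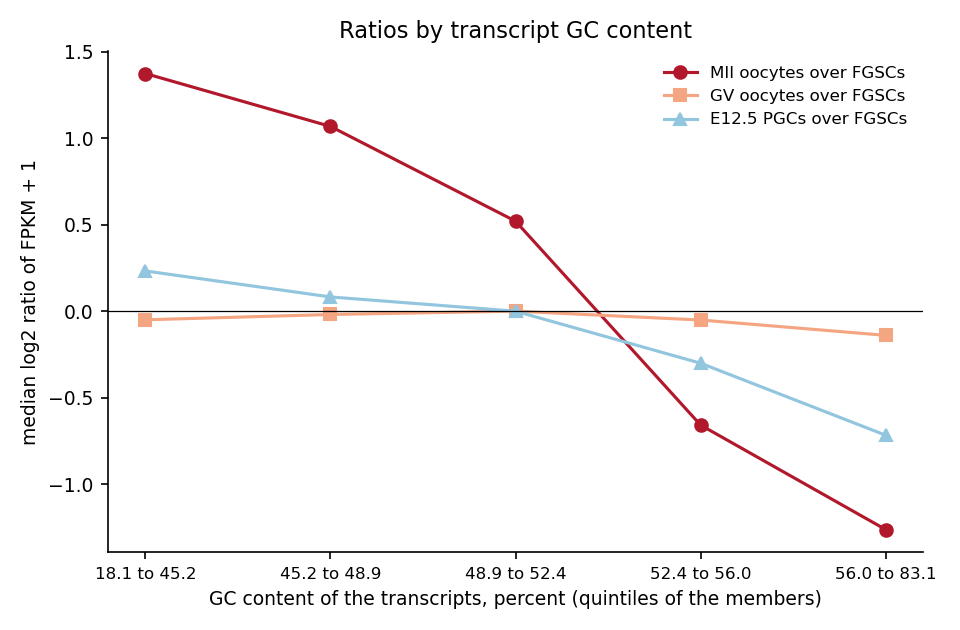
Median log2 ratio of pooled FPKM + 1 over FGSCs (vertical axis) in quintiles of the members by GC content of their transcripts (horizontal axis), for MII oocytes, GV oocytes and E12.5 PGCs, all set against the same FGSC values. The line for MII oocytes runs from 1.37 to -1.26, that for E12.5 PGCs from 0.23 to -0.72, and that for GV oocytes stays between -0.14 and 0.00.

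When ratios were centred within these quintiles, an alternative chosen after seeing the data, 4750 genes were higher and 4741 lower. The list of oocyte families then had a median log2 ratio of 10.06 and that of the subcortical maternal complex one of 6.72. Cytosolic ribosomal proteins stood at -3.32, glycolysis at -3.13 and spindle genes at 1.11. Leukocyte and germ cell identity genes, by contrast, came to 0.12 and 0.15. By transcript length the quintile of the longest transcripts had a median log2 ratio of 0.96, and the other quintiles lay between -0.31 and 0.33. Over genes above 1 FPKM in both cell types the medians were -0.18, 0.14, 0.41, 0.68 and 1.14 in order of increasing length.

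The autosomes differed in the same ratio. Chromosome 1 had the highest median, 1.01 over 858 members, followed by chromosome 13 with 0.88 over 559. The lowest medians were those of chromosomes 7 (-0.51 over 1133 members), 19 (-0.38 over 494) and 17 (-0.30 over 703). On chromosome 1, 50.3% of members were higher and 27.2% lower in MII oocytes, and on chromosome 7, 33.7% were higher and 44.1% lower. Genes on a chromosome share base composition and gene families, and their part in these medians was not tested. By gene class, the median was 0.17 over 12549 protein-coding members, 1.96 over 201 lincRNA members, 1.11 over 297 antisense members, 1.23 over 399 pseudogenes and 1.23 over 90 snoRNA members. It was -1.89 over 32 miRNA members, of which 12 were higher and 18 lower.

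Close to the threshold, 1700054M17Rik at 1.00 FPKM in MII oocytes and 0.10 in FGSCs, and Ccdc39 at 0.243 and 1.00 in the same order, were the last members taken in. Just outside were Gm14447 at 0.383 FPKM in MII oocytes and 0.9997 in FGSCs, and Ttll9, listed at 0 in MII oocytes and at 0.999 in FGSCs. Among the members 982 were listed at 0 in MII oocytes and 958 in FGSCs.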

How the data were processed

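The authors made the FPKM values, and the submitters' processing notes list Cufflinks 2.2.1, TopHat2 and the mm9 build. The Methods name mm10 and RefSeq annotation, whereas the deposited tables carry Ensembl identifiers and mm9 coordinates. Per the labels, cDNA was made from cell lysates with oligo(dT) primers. The 6 deposited tables give 1 FPKM per gene and cell type, pooled over libraries, and these values were the same in every table that holds a cell type. The tables also hold the authors' log2 fold changes, test statistics, p-values and q-values, which were not used. Read depth is not given in the sources used here, so no precision from counting can be stated.

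Ratios were log2((MII oocyte FPKM + 1)/(FGSC FPKM + 1)), computed with Python 3.11.15 and pandas 2.3.3. Without replicate values no difference was tested, and the counting of calls was checked on simulated folds. H1foo and Spin1, not estimated in MII oocytes, were left out of ratios. Transcript GC content and gene classes came from GENCODE release M21 by Ensembl identifier, and promoter windows from RefSeq by symbol (for genes with several starts, the one listed first). Zp1, Zp2, Gdf9, Mos and Bcl2l10 had no window.

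The members and gene lists were chosen with earlier results of these data known. Named genes were the 20 with the largest ratio in each direction among members of at least 10 FPKM and with a gene name, the 10 highest in each cell type, genes of the lists and pairs, the 2 nearest to the threshold on each side, and Pou5f1, Ddx4 and Gapdh. The Tcl1, Fbxw, Oas1, Obox, Oog, Nlrp4 and Nlrp9, CCT, aminoacyl-tRNA synthetase and CCR4-NOT lists were added after values were seen. Alternatives covered the pseudocount, the filter, the scaling, the gene classes and the fold.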

Additional observations from a re-analysis of the deposited data

Results flagged for a closer look

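H1foo and Spin1 are listed at 0 in MII oocytes without an estimate, and both gave a signal in GV oocytes, which the comparison of MII oocytes with FGSCs does not use. H1foo, the linker histone of the oocyte, was at 2248 FPKM in GV oocytes, 2.41 in E12.5 PGCs and 2.49 in FGSCs. Spin1 was at 650 FPKM in GV oocytes, 45.4 in E12.5 PGCs and 23.4 in FGSCs. Their levels in MII oocytes were not analysed here.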

How the results depend on the processing

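No paired analysis was possible because each cell type has 1 pooled value per gene, and for the same reason no library could be left out. The pooled values have no spread, so a median within 0.1 of the reported one on the log2 scale was taken as unmoved, and a count within 1.5 times of the reported one. With a pseudocount of 5, 2906 genes were lower and the median log2 ratio of all members was 0.17. With TPM scaling 3848 were higher and the median was -1.06, and with the median of ratios set to 1 it was -0.19. Above 1 FPKM in both, 3483 were higher and 2103 lower, with a median of 0.51. At 4-fold 3793 were higher and 2799 lower. The median was 0.77 above 5 FPKM in at least one cell type, -0.0070 without a filter, 0.16 without predicted, clone-named and short non-coding genes, and 0.17 over protein-coding genes. The other counts, including those centred within quintiles of transcript GC (chosen after seeing the data), stayed within 1.5 times, and a pseudocount of 0.1 or leaving out repeated symbols left the median unmoved.

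Of 44 lists, TPM scaling turned 1 with a median past 2-fold, that of spermatogonial stem cell and FGSC markers, to -0.055. Above 1 FPKM in both, the endothelial list came to 0.013 over its 2 remaining genes and the oocyte Fbxw list to -0.48 over 1. Of 55 genes of largest ratio or level, 2 changed sign, both when centred within GC quintiles. Pfn1, at -1.22, came to 0.039, and Ubb, within 2-fold at -0.74, came to 0.52. Fewer genes were left above 1 FPKM in both by construction, and the cause of the other shifts was not tested.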

Other observations

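Some genes with FPKM above 10 in FGSCs, GV oocytes and E12.5 PGCs were listed at 0 in MII oocytes. There were 15 such members. Fen1, the nuclease that trims Okazaki fragments, was listed at 0 in MII oocytes and was at 16.0 FPKM in GV oocytes, 134 in E12.5 PGCs and 90.6 in FGSCs. Nop16 and Rrp9, factors of the nucleolus, were listed at 0 in MII oocytes and were at 74.9 and 74.2 FPKM in FGSCs. The keratins Krt18 and Krt19, also at 0 in MII oocytes, were at 43.5 and 12.9 FPKM in GV oocytes and at 41.2 and 18.8 in FGSCs. A value of 0 here may be a low level or a failed estimate, and the tables hold no counts to tell these apart.

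Outside the autosomes, 33 of 37 mitochondrial genes were higher in MII oocytes by 2-fold or more and 1 was lower, on the deposited scale. The shares of the autosomal members were 41.2% higher and 35.3% lower. Mitochondrial genes made up 4.53% of the summed FPKM in MII oocytes and 3.36% in FGSCs. The sum over all listed genes was itself 2.95 times larger in MII oocytes. No count of mitochondrial genes at equal sums was made. No Y-linked gene of the 21 listed was above 1 FPKM in either cell type.

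Among cytosolic aminoacyl-tRNA synthetases, which charge tRNA with amino acids, 12 of 17 members were lower in MII oocytes and 2 were higher. Over all members 35.3% were lower and 41.2% higher. Vars stood at 0.551 FPKM in MII oocytes and 59.0 in FGSCs, and Wars, one of the higher ones, at 60.4 FPKM in MII oocytes and 25.5 in FGSCs. Of 16 members of the BTG family and the CCR4-NOT complex, 10 were higher and 3 lower in MII oocytes, and at equal sums of FPKM 6 were higher and 5 lower, with a median log2 ratio of 0.11 in place of 1.58. Cnot4, a ubiquitin ligase, was at 101 FPKM in MII oocytes and 8.08 in FGSCs, and Cnot10 at 3.57 in MII oocytes and 25.8 in FGSCs. The genes in this section were picked after their values were seen.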
